A study of Mus musculus with 10 samples.

Results

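The Apoe locus of mouse chromosome 7 was followed here through 10 genes: Apoe itself, the apolipoprotein genes Apoc1, Apoc4 and Apoc2, and Tomm40, Clptm1, Relb, Gemin7, Ppp1r13l and Ercc1. Every probe set whose platform annotation gave exactly 1 gene symbol equal to one of these names was taken, whatever its level. This gave 17 of the 45101 probe sets on the array, for 10 of the 18194 genes that it names singly, and 0 probe sets named one of the genes among several symbols. In RefSeq gene order the stretch from Ercc1 to Tomm40 holds 23 protein-coding genes, of which these are 10. Apoc1 and Tomm40 lie next to Apoe on either side, while Gemin7 is separated from Apoe by 8 coding genes, Ppp1r13l by 18 and Ercc1 by 20. The name nearest neighbours therefore fits only in part: Nectin2, next after Tomm40, is not among the 10.

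Liver RNA from 10 female mice was measured on one-colour arrays, with 1 extract and 1 array per animal. The 5 APOE4 mice were homozygous for human APOE4 in place of mouse Apoe (strain B6.129P2-Apoetm3(APOE*4)Mae N8), and the 5 APOE3 mice for human APOE3 in the same place (B6.129P2-Apoetm2(APOE*3)Mae N8). By the labels, every animal was C57BL/6 by background and 3 months of age. The high-fat feed had 41% of its energy from milk fat plus 2 g/kg cholesterol and was given for 6 weeks by one label and 2 months by another. In both groups the human coding gene is driven by the mouse Apoe promoter per the labels, both carry the replacement, and mice with their own Apoe were not analysed here. The comparison asks whether the genes around the replaced locus are expressed differently between the 2 targeted lines. Whether the 2 lines carry the same DNA around Apoe was not tested. An effect of the isoform was therefore not separated from one of the flanking DNA.

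Apolipoprotein E coats remnant lipoproteins and binds the LDL receptor family, which removes them from plasma into hepatocytes. The small apolipoproteins C encoded beside it ride on the same particles: apoC-II is the cofactor that lipoprotein lipase needs, and apoC-I restrains lipolysis and receptor uptake. In liver the cluster is transcribed mainly in hepatocytes, in humans under shared distal control regions, and macrophages also transcribe Apoe. The genes around the cluster have unrelated cellular roles in mitochondrial protein import, NF-kB signalling, assembly of splicing particles, p53 control and DNA repair.

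The windows from which these genes are transcribed are shown for Apoe, whose promoter drives the human isoforms in both groups, for the flanking genes Tomm40, Apoc4 and Apoc2, and for Ppp1r13l, which had the largest difference of the locus. Each is the 250 bases before the start site, 5′ to 3′ on the gene's strand, from RefSeq on GRCm38.p6, and 8 of the 10 genes had an entry. Apoe had 3 entries and the most upstream is shown. Capitals mark 4 motifs searched on both strands: TATAAA, the CCAAT box, the GC box GGGCGG and the nuclear receptor half-site GGTCA. In these windows 0 matches overlap. The windows are chr7:19699189-19699438 on the minus strand for Apoe, chr7:19715430-19715679 on the minus strand for Tomm40, chr7:19681461-19681710 on the minus strand for Apoc4, chr7:19677942-19678191 on the minus strand for Apoc2 and chr7:19360966-19361215 on the plus strand for Ppp1r13l.
Apoe: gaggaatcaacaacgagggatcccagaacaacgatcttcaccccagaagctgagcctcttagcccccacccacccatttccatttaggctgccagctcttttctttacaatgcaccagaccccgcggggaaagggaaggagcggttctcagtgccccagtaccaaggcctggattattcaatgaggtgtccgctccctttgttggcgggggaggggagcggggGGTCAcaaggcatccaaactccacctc
Tomm40: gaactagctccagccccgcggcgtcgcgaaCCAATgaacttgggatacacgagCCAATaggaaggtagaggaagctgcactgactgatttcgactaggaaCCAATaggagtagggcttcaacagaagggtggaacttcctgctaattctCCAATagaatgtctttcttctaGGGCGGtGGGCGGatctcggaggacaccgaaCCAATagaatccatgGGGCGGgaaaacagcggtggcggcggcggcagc
Apoc4: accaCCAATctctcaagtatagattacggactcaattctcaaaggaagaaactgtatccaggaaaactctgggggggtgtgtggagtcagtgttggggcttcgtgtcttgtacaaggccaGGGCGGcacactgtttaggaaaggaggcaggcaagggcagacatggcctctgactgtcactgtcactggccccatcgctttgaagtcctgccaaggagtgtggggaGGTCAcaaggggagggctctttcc
Apoc2: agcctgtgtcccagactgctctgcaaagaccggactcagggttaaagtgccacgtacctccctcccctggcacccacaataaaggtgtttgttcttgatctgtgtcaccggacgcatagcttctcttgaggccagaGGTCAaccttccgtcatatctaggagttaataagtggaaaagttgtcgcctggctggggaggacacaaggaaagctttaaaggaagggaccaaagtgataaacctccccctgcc
Ppp1r13l: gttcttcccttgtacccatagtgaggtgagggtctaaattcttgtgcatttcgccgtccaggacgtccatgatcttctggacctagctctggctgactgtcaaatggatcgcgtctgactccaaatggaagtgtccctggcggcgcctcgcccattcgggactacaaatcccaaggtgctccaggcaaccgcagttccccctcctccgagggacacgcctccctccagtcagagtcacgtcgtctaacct

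The windows of the 3 apolipoprotein genes each held 1 half-site GGTCA, a motif found in 34.9% of the 27025 promoter windows searched. The Tomm40 window held 5 CCAAT boxes and 3 GC boxes. At least 1 CCAAT box is present in 34.5% of all windows and 4 or more in 0.918%. The Ppp1r13l window held 0 matches to the 4 motifs, and TATAAA was in 0 of the 8 windows, against 13.0% of all. A match is a run of letters and was not tested as a binding site.

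The values are log2 GCRMA values, 1 per probe set and array, and GCRMA places undetected transcripts near a low floor. A probe set was tested where its mean over the 10 arrays was at least 4, which 14732 probe sets reached. Of the 17 locus probe sets 9, from 8 genes, were tested; the other 8 lay under 4 on all 10 arrays, and Apoe and Relb had none that was tested. Hepatocyte markers averaged 13.13 to 13.32 log2 in APOE4 livers and 13.02 to 13.40 in APOE3 livers over 9 genes, with Alb between 14.38 and 14.54 on all arrays. Cholangiocyte markers averaged 2.81 to 3.08 in APOE4 livers and 2.67 to 3.11 in APOE3 livers. Precision is set by the 5 arrays per genotype, with a median SE of 0.142 log2 for a difference between them over the tested probe sets.

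The mouse Apoe probe set was at background in both genotypes. It read 1.14, 1.00, 1.19, 1.13 and 1.10 log2 in APOE4 replicates 1 to 5, against 1.08, 0.98, 0.96, 1.12 and 1.07 in APOE3 replicates 1 to 5. The groups overlapped and all 10 arrays lay within 0.227 log2 of each other. The probe set (1432466_a_at) was designed on the mouse transcript, so it shows neither the level of the human transgene nor which isoform an animal carried. Mice with their own Apoe were not analysed here, so these values alone do not check the replacement.

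None of the locus probe sets passed the adjusted threshold between APOE4 and APOE3. With limma, 0 of 9 had an adjusted p under 0.05, where 0.0815% of all tested probe sets did, and 1 of 9, Ppp1r13l, had an unadjusted p under 0.05, where 8.00% did. Differences ran from -0.39 to 0.26 log2, with 4 positive and 5 negative and a median of -0.043. Over all tested probe sets the median was 0.047, and 60.9% were positive. The 5 APOE4 livers lay entirely on one side of the 5 APOE3 livers for 1 of the 9, again Ppp1r13l, where 2.02% of tested probe sets did so in either direction and 0.563% with APOE4 lower.

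**Figure D1:**
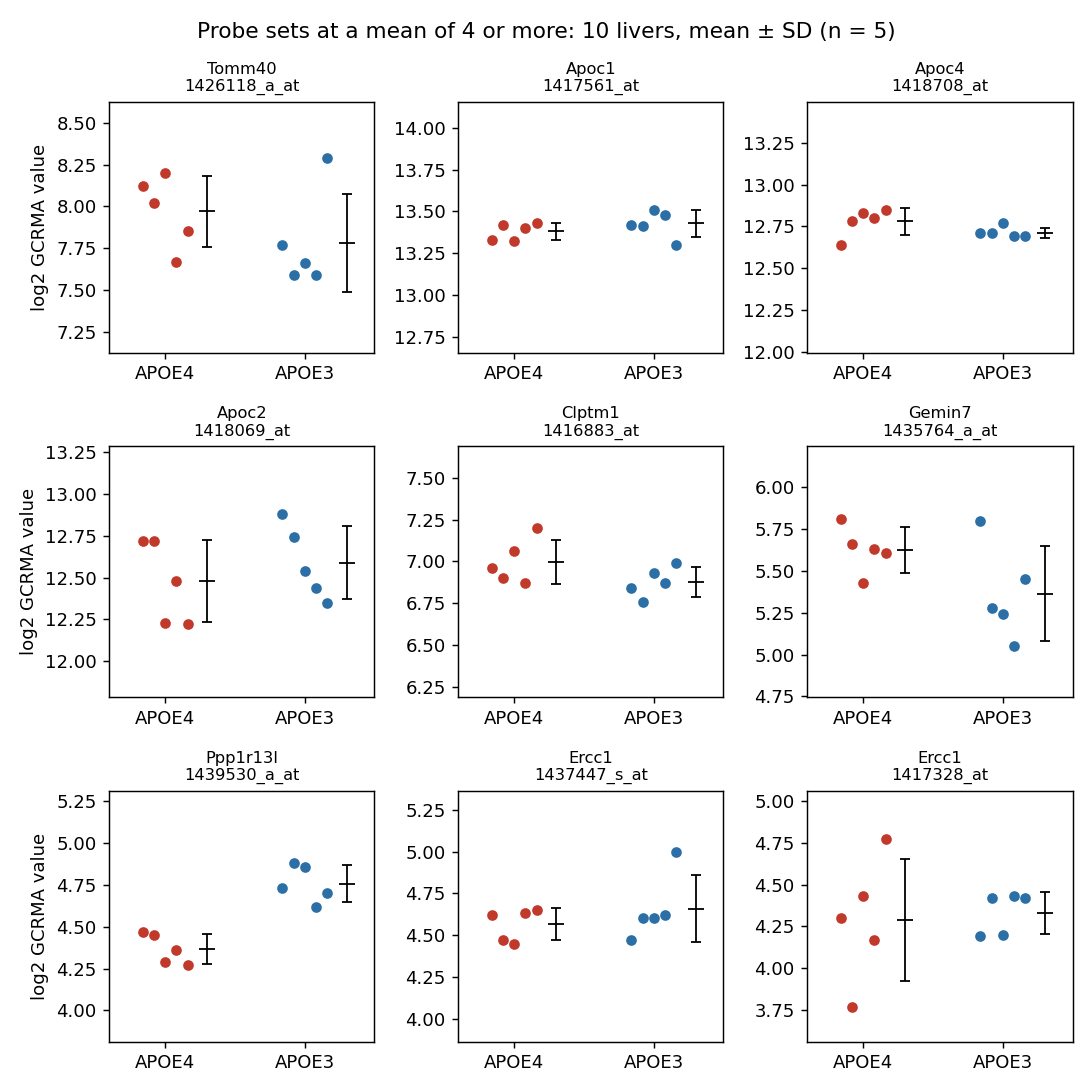
Log2 GCRMA values of the 9 tested locus probe sets in each of 10 livers, APOE4 (red) and APOE3 (blue), replicates 1 to 5 drawn left to right within a genotype; the bar is the mean ± SD (n = 5), and all panels span the same number of log2 units. The genotypes are separate for Ppp1r13l (4.27 to 4.47 in APOE4, 4.62 to 4.88 in APOE3) and overlap in the other panels.

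The apolipoprotein C genes were measured high on the scale and differed little between genotypes. Apoc1 read 13.33, 13.42, 13.32, 13.40 and 13.43 log2 in APOE4 livers, against 13.42, 13.41, 13.51, 13.48 and 13.30 in APOE3 livers. The highest and the lowest value were both from APOE3 animals, and the groups overlapped. The difference was -0.047 log2 (SE 0.079, 95% interval -0.22 to 0.13), a change in APOE4 of -14.2% to 9.16% (adjusted p = 0.90 in limma). It was -0.10 with arrays centred on their median, and -0.078 without APOE3 replicate 5 to -0.025 without APOE3 replicate 3. Apoc4, a minor apolipoprotein gene expressed mainly in liver, read 12.64, 12.78, 12.83, 12.80 and 12.85 in APOE4 livers, against 12.71, 12.71, 12.77, 12.69 and 12.69 in APOE3 livers. Here 4 of the 5 APOE4 values exceeded every APOE3 value, while APOE4 replicate 1 was the lowest of all 10. The difference was 0.066 log2 (SE 0.078, 95% interval -0.10 to 0.24; adjusted p = 0.85 in limma), and without APOE4 replicate 1 it was 0.10 with genotypes that no longer overlapped (adjusted p = 0.77 in limma).

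Apoc2, the lipoprotein lipase cofactor, had a wider spread between animals than its neighbours. It read 12.72, 12.72, 12.23, 12.48 and 12.22 log2 in APOE4 livers, against 12.88, 12.74, 12.54, 12.44 and 12.35 in APOE3 livers. The 2 lowest livers were APOE4 and the 2 highest APOE3, with the rest intermixed. The difference was -0.12 log2 (SE 0.14, 95% interval -0.43 to 0.20; adjusted p = 0.86 in limma), a change in APOE4 of -25.8% to 14.9%. It ran from -0.18 without APOE4 replicate 1 to -0.042 without APOE3 replicate 1, with -0.055 without APOE4 replicate 3 and -0.051 without APOE4 replicate 5. The SD within a genotype was 0.233 log2 for Apoc2, against 0.068 for Apoc1 and 0.063 for Apoc4. Apoc2 was near the median of all tested probe sets, 0.231. Only 1.31% of them had a smaller SD than Apoc1 and 0.923% a smaller one than Apoc4, so these 2 were the unusual ones.

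Variation between animals was not shown to be shared among the 3 genes. Values were set against the mean of their genotype, and 3 pairs were tested over the 10 arrays with 100000 two-sided permutations within genotype. Apoc1 and Apoc4 had a Pearson r of 0.44 (permutation p = 0.147, adjusted 0.249) and a Spearman rho of 0.49 (permutation p = 0.150, adjusted 0.451). Their r was 0.36 without the 2 arrays farthest from the median of the first gene named, here Apoc1. Such arrays were chosen by the first gene of a pair alone. Without APOE4 replicate 3 the r of Apoc1 and Apoc4 was 0.62 (exact permutation, adjusted p = 0.0448). Apoc2 and Apoc4 had r = -0.51 (permutation p = 0.166, adjusted 0.249) and rho = -0.37 (permutation p = 0.317, adjusted 0.476), with r = -0.30 without the 2 farthest arrays. Apoc1 and Apoc2 had r = 0.094 (permutation p = 0.800, adjusted 0.800) and rho = -0.042 (permutation p = 0.924, adjusted 0.924), with r = -0.19 without the 2 farthest arrays. Within a genotype there were only 5 arrays, so r there is a description and was not tested. For Apoc2 and Apoc4 it was -0.79 in APOE4 livers and 0.17 in APOE3 livers. For Apoc1 and Apoc4 it was 0.46 in APOE4 and 0.68 in APOE3 livers. For Apoc1 and Apoc2 it was 0.0092 in APOE4 and 0.16 in APOE3 livers.

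**Figure D2:**
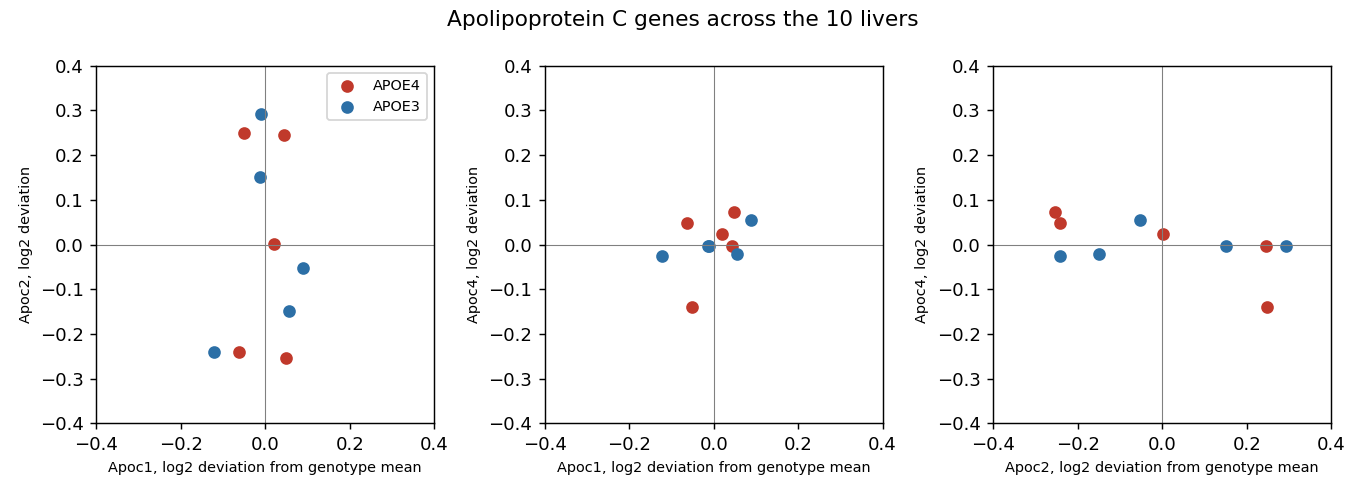
Deviation of each liver from the mean of its genotype, in log2, for the pairs Apoc1 and Apoc2, Apoc1 and Apoc4, and Apoc2 and Apoc4 (APOE4 red, APOE3 blue, 10 livers). Apoc2 spreads more than Apoc1 and Apoc4, and the 3 Pearson r over all livers are 0.094, 0.44 and -0.51. The last is -0.79 within APOE4 and 0.17 within APOE3.

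Markers of macrophages, the other liver cells known for Apoe transcription, did not pass. Of 12 measured Kupffer cell and macrophage markers 11 were negative, while 60.9% of all tested probe sets were positive. The median difference was -0.25 log2, 0 passed and the smallest adjusted p was 0.71 in limma. Markers of 1 cell type can vary together, so their signs are not independent of each other. The list averaged 7.96 to 8.87 in APOE4 livers and 8.15 to 9.90 in APOE3 livers. Some markers spread widely among APOE3 livers: Marco had an SD of 3.02 log2 there against 0.83 in APOE4 livers, and Timd4 1.29 against 0.42. Cd68 went the other way, with 0.54 in APOE3 and 0.87 in APOE4 livers. How far single livers carry the negative signs was not tested. The part of these cells in the Apoc values was not tested. In whole liver the number of cells of a type and the RNA per cell cannot be told apart.

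Tomm40, next to Apoe on the other side, encodes the channel through which proteins enter mitochondria. It read 8.12, 8.02, 8.20, 7.67 and 7.85 log2 in APOE4 livers, against 7.77, 7.59, 7.66, 7.59 and 8.29 in APOE3 livers. APOE3 replicate 5 was the highest of all, and without it 4 of the 5 APOE4 livers lay above every APOE3 liver. The difference was 0.19 log2 (SE 0.15, 95% interval -0.15 to 0.53; adjusted p = 0.77 in limma) and 0.32 without APOE3 replicate 5 (adjusted p = 0.61 in limma).

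Clptm1, named for a human cleft lip and palate family, encodes a membrane protein. Its tested probe set read 6.96, 6.90, 7.06, 6.87 and 7.20 log2 in APOE4 livers, against 6.84, 6.76, 6.93, 6.87 and 6.99 in APOE3 livers. The groups overlapped, and the difference was 0.12 (SE 0.092, 95% interval -0.082 to 0.32; adjusted p = 0.76 in limma). Without APOE4 replicate 5 it was 0.072, and with arrays centred on their median 0.065. Its second probe set stayed between 2.59 and 3.16 in APOE4 livers and between 2.39 and 2.98 in APOE3 livers.

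Relb, a subunit of noncanonical NF-kB, had 1 probe set, which read 1.67 to 2.29 log2 in APOE4 livers and 1.74 to 2.36 in APOE3 livers. All values were near the floor, and a difference was not detectable at this level. Among 7 markers of dendritic cells, which are known to use Relb, the genes Flt3, Itgax, Ccr7, Xcr1 and Siglech were under 4 on every array. The other two were tested: the MHC class II gene H2-Ab1 averaged 7.75 in APOE4 livers and 7.81 in APOE3 livers, and the transcription factor gene Zbtb46 5.41 in APOE4 livers and 5.47 in APOE3 livers.

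Gemin7, a subunit of the SMN complex that assembles splicing particles, had the largest positive difference of the locus. It read 5.81, 5.66, 5.43, 5.63 and 5.61 log2 in APOE4 livers, against 5.80, 5.28, 5.24, 5.05 and 5.45 in APOE3 livers. APOE3 replicate 1 lay among the APOE4 livers, and APOE3 replicate 5, at 5.45, lay above the lowest APOE4 liver, at 5.43. The remaining APOE3 livers were at or below 5.28. The difference was 0.26 log2 (SE 0.14, 95% interval -0.042 to 0.57, 1.20-fold; adjusted p = 0.67 in limma). Without APOE3 replicate 1 it was 0.37 (adjusted p = 0.31 in limma), and without APOE3 replicate 4 it was 0.18.

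Ppp1r13l encodes iASPP, an inhibitor of p53, and had the largest difference of the tested locus probe sets. By probe set 1439530_a_at it read 4.47, 4.45, 4.29, 4.36 and 4.27 log2 in APOE4 livers, against 4.73, 4.88, 4.86, 4.62 and 4.70 in APOE3 livers. Every APOE4 liver lay below every APOE3 liver, although the values are near the floor, with means of 4.37 ± 0.090 in APOE4 and 4.76 ± 0.11 in APOE3 (SD, n = 5 each). The difference was -0.39 log2 (SE 0.089, 95% interval -0.59 to -0.20), a change of -23.7%. Its unadjusted p of 0.00103 ranked 38 among the 14732 probe sets and its adjusted p was 0.40 in limma, so it did not pass.

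The separation of the genotypes at Ppp1r13l was read against all probe sets at a like level. Among the 2869 tested probe sets with a mean from 4 to 5, 0.767% had every APOE4 liver below every APOE3 liver and 3.31% were lower with an unadjusted p under 0.05. With any 1 animal left out, the difference lay between -0.43 and -0.36 and the adjusted p between 0.23 and 0.67 (limma).

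Ppp1r13l had 3 more probe sets, all under 4. By 1459593_x_at it read 2.99, 2.70, 2.54, 2.76 and 2.72 log2 in APOE4 livers, against 2.99, 3.17, 3.39, 3.13 and 3.10 in APOE3 livers. APOE4 replicate 1 met the lowest APOE3 liver, so the groups touched at 2.99 after rounding. By 1459592_a_at it read 2.05, 2.09, 2.07, 2.11 and 2.26 in APOE4 livers, against 2.25, 2.24, 2.71, 2.58 and 2.58 in APOE3 livers, with APOE4 replicate 5 above the lowest 2 APOE3 livers. Fitted without a filter, these differed by -0.41 (SE 0.10) and -0.36 (SE 0.10), with unadjusted p of 0.0015 and 0.0049 and adjusted p of 0.39 and 0.45 in limma. Both come from the same expressed sequence and are not independent of each other. The last, 1456774_at, shares its expressed sequence with 1439530_a_at and differed by -0.10 (SE 0.081), with 1.61 to 1.90 in APOE4 livers and 1.77 to 1.97 in APOE3 livers.

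Low probe sets as a whole were more often negative. Of the 30305 probe sets under a mean of 4, 39.5% were positive, and 5.50% were lower in APOE4 with an unadjusted p under 0.05 while 1.78% were higher. Of the 8 low locus probe sets 6 were negative and 2 positive, 2 had an unadjusted p under 0.05 (7.27% of all probe sets under 4), and in 0 were the genotypes apart (1.80%).

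**Figure D3:**
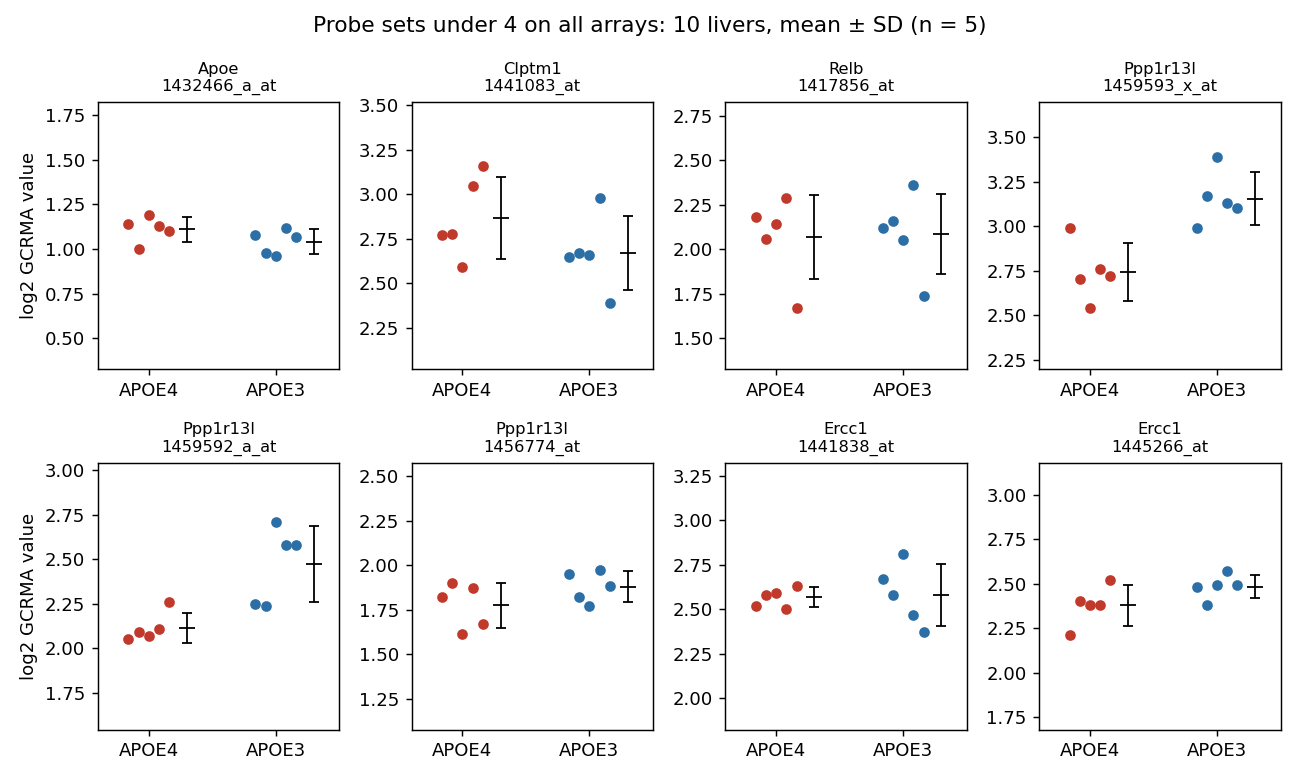
Log2 GCRMA values of the 8 locus probe sets under 4 on all arrays, for 5 APOE4 (red) and 5 APOE3 (blue) livers with the mean ± SD (n = 5); all panels span the same number of log2 units. Apoe stays between 0.96 and 1.19, and Ppp1r13l by 1459593_x_at and 1459592_a_at sits lower in most APOE4 livers.

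Ercc1, which with Ercc4 forms the nuclease of nucleotide excision repair, had 4 probe sets and no difference past the spread between animals. By 1437447_s_at it read 4.62, 4.47, 4.45, 4.63 and 4.65 log2 in APOE4 livers, against 4.47, 4.60, 4.60, 4.62 and 5.00 in APOE3 livers. Apart from APOE3 replicate 5 all livers lay between 4.45 and 4.65. The difference was -0.092 (SE 0.11, 95% interval -0.33 to 0.15; adjusted p = 0.86 in limma). Leaving out APOE3 replicate 5 brought it to -0.0071. By 1417328_at it read 4.30, 3.77, 4.43, 4.17 and 4.77 in APOE4 livers, against 4.19, 4.42, 4.20, 4.43 and 4.42 in APOE3 livers. The APOE4 livers held both extremes, and the difference was -0.043 (SE 0.16; adjusted p = 0.96 in limma), which was 0.085 without APOE4 replicate 2. The remaining probe sets ran from 2.21 to 2.63 in APOE4 livers and from 2.37 to 2.81 in APOE3 livers.

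**Figure D4:**
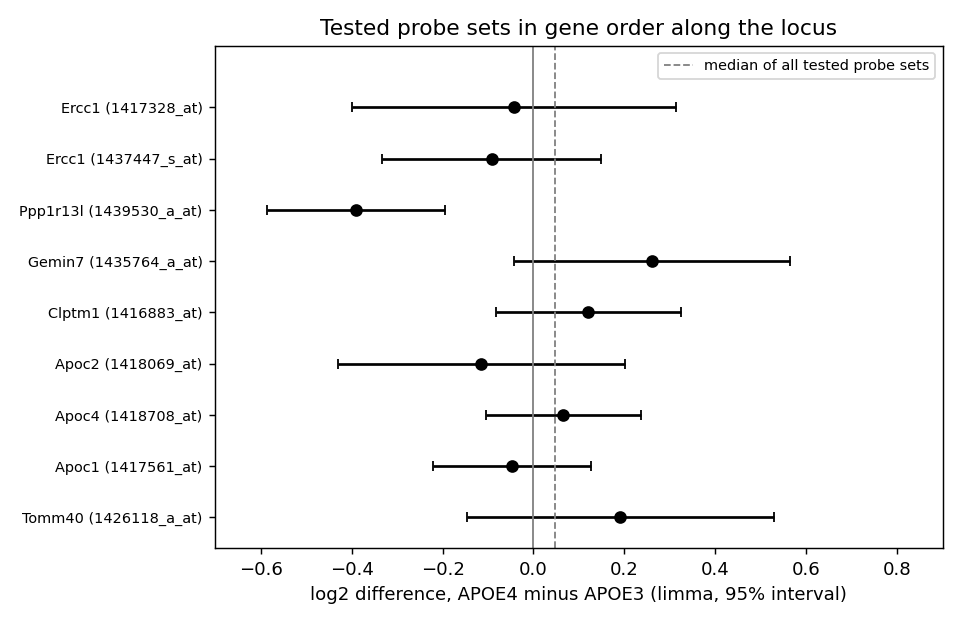
Log2 difference of APOE4 minus APOE3 with its 95% interval in limma for the 9 tested probe sets, from Ercc1 at the top to Tomm40 at the bottom in gene order; the dashed line is the median of all tested probe sets (0.047). The interval excludes 0 for Ppp1r13l only, and that probe set did not pass after adjustment.

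Other genes of the region were followed through the 25 nearest genes on each side of Apoe that the array names, with the 10 left out. Some of them lie between the 10. Counted in coding genes from Apoe, they ran from -36 (Dmpk) on the Ercc1 side to 127 (Tescl) on the Tomm40 side. These 50 genes had 77 probe sets, of which 14 from 11 genes were tested, 7 genes on the Ercc1 side and 4 on the Tomm40 side. With limma 0 of 14 passed, where 0.0815% of all tested probe sets did, and 2 (14.3%) had an unadjusted p under 0.05, where 8.00% did. In 0 of 14 were the genotypes apart, where 2.02% of all were, and the median difference was -0.064 log2. Both with a low unadjusted p were of Opa3, a mitochondrial protein gene mutated in human optic atrophy, which lies beyond Ercc1. Opa3 was higher in APOE4 by 0.39 (SE 0.14) and 0.54 (SE 0.16), with adjusted p of 0.58 and 0.48 in limma, and by 0.18 (SE 0.13) on its remaining tested probe set. Vasp, an actin regulator gene on the same side, was at -0.42 (SE 0.32; adjusted p = 0.76). Nectin2, next after Tomm40, was at 0.083 (SE 0.15) and -0.092 (SE 0.15) by its tested probe sets.

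**Figure D5:**
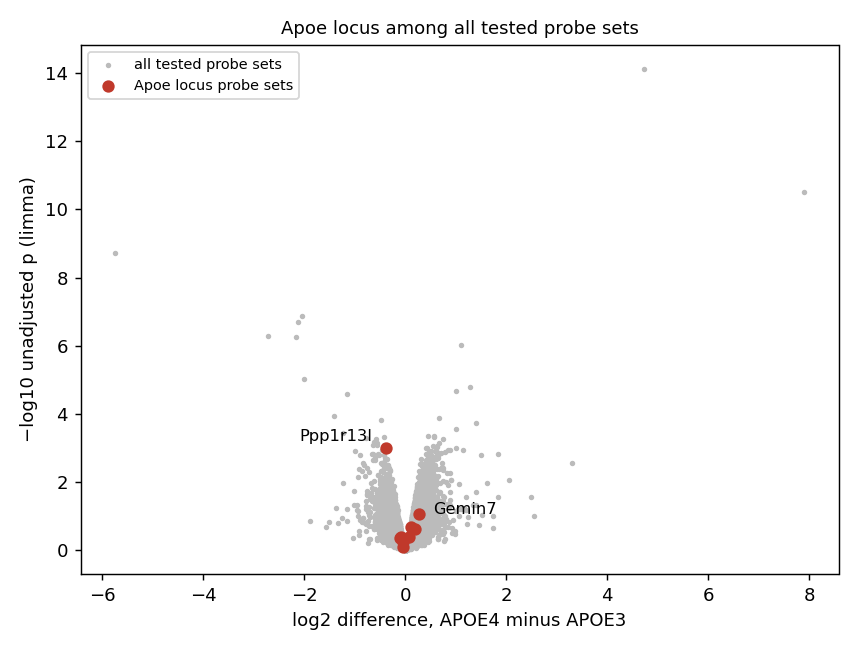
All 14732 tested probe sets by log2 difference of APOE4 minus APOE3 and −log10 of the unadjusted p in limma, with the 9 locus probe sets in red. Ppp1r13l and Gemin7 are labelled; Ppp1r13l, at -0.39 with an unadjusted p of 0.00103, lies apart from the other 8.

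The tested genes known to work with the products of the locus did not pass either. Over 7 lists with 94 tested genes, 0 passed in limma and 6 (6.38%) had an unadjusted p under 0.05, a share near the 8.00% of all tested probe sets, with a median difference of 0.018 log2. Among 20 tested partners of the apolipoproteins on lipoproteins, 11 were positive and 9 negative with a median of 0.028. Angptl8, which restrains lipoprotein lipase, was at 0.76 (SE 0.42) and Lcat, which esterifies cholesterol in plasma, at 0.17 (SE 0.11). Among 12 sterol-sensing regulators and targets, 5 were positive and 7 negative with a median of -0.018. The retinoid X receptor gene Rxrb was at 0.25 (SE 0.11) and the sterol transporter gene Abcg5 at -0.38 (SE 0.19).

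The tested partners of the flanking genes did not pass. Several close partners were under a mean of 4 and were not tested. They include Ercc4 (3.89 in APOE4 and 3.74 in APOE3 livers), Nfkb2, Map3k14, Smn1 and Gemin8. Of 15 NF-kB list genes on the array 9 were tested, and of 24 repair genes 18. Of 13 genes of the mitochondrial outer membrane and of mitochondrial protein import 8 were positive, with a median of 0.027, Tomm22 at 0.18 (SE 0.10) and Mtx1 at 0.19 (SE 0.11). Of 9 tested NF-kB family and pathway genes 5 were positive, with a median of 0.0075, the inhibitor gene Nfkbib at 0.32 (SE 0.17) and Birc3 at -0.20 (SE 0.12). The SMN complex list had 7 of 9 positive and a median of 0.12, with Snrpg, a core splicing particle protein gene, at 0.33 (SE 0.11) and Strap at 0.28 (SE 0.12). The list of ASPP family genes and p53 targets also held Ppp1ca, Ppp1cb, Ppp1cc, Mdm4 and Ep300. It had 4 of 13 positive and a median of -0.076, so these do not describe p53 targets alone. Its genes with the smallest p were the p53 targets Ccng1 at -0.35 (SE 0.13) and Sesn1 at -0.33 (SE 0.14). Nucleotide excision repair had 11 of 18 positive and a median of 0.015, with Rad23b at 0.24 (SE 0.11) and Ercc5 at -0.28 (SE 0.14). The smallest adjusted p in any of the 7 lists was 0.55 in limma.

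The genes that varied most like the locus genes between animals were listed by Pearson r of the deviations from the genotype mean over 10 arrays, among 13351 probe sets with 1 symbol, as a description of these arrays. For Apoc1 they were Hax1 (r = 0.95), Osbpl9 (0.92) and Hnrnpl (0.89). For Apoc2 they were Prpsap2 (0.98), Ifi27l2b (0.97) and Serpinb8 (0.97). For Apoc4 they were Dock4 (0.94), Rab17 (0.94) and Jmy (0.94), and for Ppp1r13l Rdx (0.90), Styx (0.88) and Cdc42ep5 (0.87). None of the 10 locus genes was among them. The highest r were picked from 13351 probe sets over 10 arrays, so high values can arise by chance. None was tested.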

How the data were processed

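Liver RNA of 5 APOE4 and 5 APOE3 mice, 1 array each, was labelled with biotin from 2 µg. Deposited log2 values, 1 for each probe set and array, came from GCRMA 2.12.1 run by the authors under R 2.7.1, as named in the submitters' processing notes; this method subtracts a background modelled on probe GC content and normalizes across arrays. Any probe filter is not given in the sources used here. Groups came from the sample titles, and 0 value columns belonged to no sample. Probe sets were named from the platform annotation (34958 with 1 symbol, 932 with several, 9211 with none); gene order and promoters are RefSeq on GRCm38.p6, a build the files do not name, so its coordinates are given for the promoter windows alone.

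The 64 control probe sets were left out. The 14732 probe sets with a mean of at least 4 over all arrays were fitted with limma 3.58.1 in R 4.3.3 (lmFit, eBayes without trend, two-sided, no covariate), and p-values were adjusted by Benjamini-Hochberg over all of them, threshold 0.05. The procedure was tested on simulated data, with planted differences larger than any at the tested locus probe sets. That test gives no measure of power at the sizes seen here. Correlations and figures used Python 3.11.15 and matplotlib 3.10.9. The rule for named genes was all locus genes, and in each list and the wider flank genes past the threshold or otherwise the 2 with the smallest p; list genes use the probe set with the highest mean. The locus genes and the lists were chosen with earlier results of these data known. No batch was given in the labels. Alternatives were other filters, eBayes trend and robust settings, array weights, quantile normalization, centring, a floor at 4, 1 probe set per gene, the replicate number as a block and each animal left out. Same-numbered animals of the 2 genotypes had deviations correlated from -0.079 to 0.41 over the 5 numbers, so the numbers were not taken to pair them.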

Additional observations from a re-analysis of the deposited data

Results flagged for a closer look

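In 4 of the 34 groups of 5 livers examined for the 17 locus probe sets, 1 liver stood apart by a gap beyond Dixon's 95% critical value; chance flags about 1 in 20 groups. Tomm40 was at 8.29 log2 in APOE3 replicate 5, against 7.59 to 7.77 in the other APOE3 livers. Ercc1 by 1437447_s_at was at 5.00 in the same animal, against 4.47 to 4.62 in the others. Apoc4 was at 12.77 in APOE3 replicate 3, against 12.69 to 12.71 in the others, a gap smaller than the spread among APOE4 livers. Ppp1r13l by 1459592_a_at was at 2.26 in APOE4 replicate 5, against 2.05 to 2.11 in the others, all near the floor. The cause was not tested.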

How the results depend on the processing

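The 9 tested locus probe sets gave 175 differences under 20 alternative settings, of which 0 passed the threshold (lowest adjusted p 0.22 in limma, Ppp1r13l with arrays centred on their median) and 173 kept their direction. The exceptions were both of Ercc1 by 1417328_at, at 0.0018 with values under 4 set to 4, and from -0.16 to 0.085 with 1 animal left out. The count of locus probe sets with separate genotypes was 0 with a filter at a mean of 6, which leaves 5 of the 9 and not Ppp1r13l, and 1 to 2 with 1 animal left out, the second being Apoc4 without APOE4 replicate 1. Centring took Apoc1 to -0.10, Apoc2 to -0.17, Apoc4 to 0.0093, Clptm1 to 0.065 and Ercc1 to -0.15 and -0.0999. Over all probe sets 12 were called, 5 with the filter at 6 and 7 with 1 probe set per gene, where fewer are tested. With the replicate number as a block 11 were called, locus calls stayed at 0 and Ppp1r13l was at -0.39 (adjusted p = 0.43 in limma); 4 of 10 animals correlated best with their own number. The r of Apoc1 and Apoc2 was -0.042 by Spearman, -0.19 without the 2 farthest arrays and 0.40 under renewed quantile normalization and -0.30 to 0.25 with 1 animal left out. That of Apoc1 and Apoc4 was 0.17 on values not set against the genotype mean, 0.22 under quantile normalization, 0.60 with centring and 0.33 to 0.62 with 1 animal left out. The wider flank and the tested partner genes had 0 calls throughout. Centring moved the median of all tested probe sets to -0.0099 and renewed quantile normalization to 0.0041. Signal limits the reading of Apoe, Relb and the low probe sets of Ppp1r13l, Ercc1 and Clptm1.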
